A study of Rattus norvegicus with 12 samples.

Results

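The miR-17-92 cluster and its paralogues were measured in rat plasma with 12 of the 420 endogenous probes of the nCounter rat panel, an assay that counts fluorescent barcodes hybridised to each miRNA without amplification. Members were taken by name, as the probes for miR-17, miR-18a, miR-19a, miR-19b, miR-20a, miR-20b, miR-92a, miR-92b, miR-93, miR-25, miR-106b and miR-363. The rule used no measured value, but it was set with earlier results of these data known. The table names them with a species prefix, among them rno-miR-20a+rno-miR-20b-5p, rno-miR-19b, rno-miR-93 and rno-miR-25, and the joint probe for miR-20a and miR-20b-5p counted once. All 12 animals were female Wistar rats, 6 of them pregnant and sampled at embryonic day E14.5 and 6 non-pregnant controls, each giving 1 sample of platelet-free plasma from blood drawn after death. Pregnant rats were 103 to 373 days old and controls 110 to 269 days, with 4 rats under 200 days in each group. The study asked how pregnancy alters miRNA circulating in maternal blood and how much the answer depends on data processing.

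MicroRNAs of this family are cut from polycistronic transcripts, so that several mature miRNAs leave 1 precursor. Bases 2 to 8 from the 5′ end, the seed, do most of the target recognition, and members with the same seed are expected to share many targets. The cluster is known for promoting cell proliferation and survival, for its role in blood cell formation and as an oncogene, and its members are commonly found in red cells, platelets and placental tissue.

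The mature sequences of the members, from RefSeq for rat build GRCr8, are shown because their seeds group the 12 probes and because close relatives differ at few positions. Capitals mark the seed. Probe names without an arm were matched to the arm that the older name denoted.

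miR-17-5p: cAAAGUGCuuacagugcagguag
miR-20a-5p: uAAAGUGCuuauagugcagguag
miR-20b-5p: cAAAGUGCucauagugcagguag
miR-93-5p: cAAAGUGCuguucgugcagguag
miR-106b-5p: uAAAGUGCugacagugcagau
miR-18a-5p: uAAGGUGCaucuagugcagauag
miR-19a-3p: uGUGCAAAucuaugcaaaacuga
miR-19b-3p: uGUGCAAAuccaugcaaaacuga
miR-25-3p: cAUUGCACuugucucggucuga
miR-92a-3p: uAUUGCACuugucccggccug
miR-92b-3p: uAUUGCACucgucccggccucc
miR-363-3p: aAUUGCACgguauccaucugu
miR-20b-3p: aCUGCAGUgugagcacuucugg

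The miR-17 seed was shared by miR-17-5p, miR-20a-5p, miR-20b-5p, miR-93-5p and miR-106b-5p, and the seed of miR-18a-5p is a close variant of it. The miR-19 seed was that of miR-19a and miR-19b, which differed at 1 of 23 positions. The miR-25 seed joined miR-25, miR-92a, miR-92b and miR-363, of which miR-92a and miR-92b differed at 2 of 21 compared positions and miR-92a and miR-25 at 3 of 21. Because miR-20a-5p and miR-20b-5p differed at 2 of 23 positions and have a joint probe, their counts could not be separated. How far the other probes tell close relatives apart was not tested.

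In GRCr8 the cluster itself lies on chr15:98587861-98588622, on the plus strand, in the order Mir17, Mir18a, Mir19a, Mir20a, Mir19b1 and Mir92a1. The X paralogue, chrX:137342788-137343637 on the minus strand, holds Mir106a, Mir20b, Mir19b2, Mir92a2 and Mir363, and the table gives the Mir106a hairpin the same 5p product as Mir17. The miR-106b-25 paralogue, chr12:22156652-22157123 on the minus strand, holds Mir106b, Mir93 and Mir25 within the bounds of Mcm7, a gene for a subunit of the replicative helicase. Mir92b stands alone on chr2:176931663-176931684, minus strand. The mature sequences of miR-17-5p, miR-19b and miR-92a have a source on both chromosome 15 and chromosome X, so those 3 probes do not tell the loci apart. No other gene of the RefSeq table overlapped the chromosome 15, X and 2 intervals.

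Counts were low throughout. Endogenous totals were 6969 to 10176 per control rat and 5163 to 30301 per pregnant rat, and the median endogenous probe had 6 to 12 counts in a rat. As the stand-in for background, the mean of the 4 exogenous plant and worm probes to which no RNA was added ran from 7.25 to 15.8 counts per rat. Their mean + 1 SD ran from 12.6 to 32.4. Those 4 probes summed to 29 to 63 counts in controls and to 30 to 50 in pregnant rats, so they did not share the range of the totals. Pregnant rat 6 had the highest total and pregnant rat 2 the lowest.

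Most of the signal came from a few members. The joint probe for miR-20a/miR-20b-5p gave 43.4% of all member counts, miR-25 29.4%, miR-17-5p 9.03%, miR-93 6.40% and miR-106b 3.13%, which together made 91.3%. Counts of different probes also depend on the probe, so this order is one of counts and not of molecules. The summed members made 3.81% to 8.62% of the endogenous total in controls, with a median of 5.87%, and 2.87% to 8.17% in pregnant rats, with a median of 4.88%. The lowest share, that of pregnant rat 2, had a Wilson 95% interval of 2.45% to 3.36% and the highest, that of control rat 4, one of 8.05% to 9.22%, which cover counting error only. The group ranges overlapped over most of their length.

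Of the miR-17 seed members, the joint probe for miR-20a/miR-20b-5p had 169, 198 and 366 counts as the lowest, median and highest control value. In pregnant rats 1 to 6 it had 105, 38, 237, 324, 753 and 831 counts. Pregnant rats 5 and 6 lay above every control and pregnant rats 1 and 2 below every control, so the groups overlapped with the pregnant rats at both ends.

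Pregnant rats 5 and 6 also lay above every control, and pregnant rats 1 and 2 below every control, for miR-17-5p, the first miRNA of the cluster. Controls ran from 31 through a median of 45 to 63 counts, and pregnant rats 1 to 6 had 10, 11, 39, 49, 233 and 162. miR-106b, its relative from the Mcm7 locus, had 9 to 23 counts in controls, with a mean of 14.7 ± 5.16 (SD, n = 6), and 5, 5, 11, 16, 77 and 66 in pregnant rats 1 to 6.

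miR-93, which has the miR-17 seed and lies between Mir106b and Mir25, varied less. It had 31, 38 and 46 counts as the lowest, median and highest control value and 29, 18, 37, 35, 110 and 94 in pregnant rats 1 to 6. Its highest pregnant count was 6.11 times its lowest, against 23.3 times for miR-17-5p and 21.9 times for miR-20a/miR-20b-5p. Its lowest pregnant count, 18, was above that of miR-17-5p, 10.

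The miR-25 seed set was divided. miR-25 had 98, 133.5 and 204 counts as the lowest, median and highest control value, and 69, 21, 113, 187, 683 and 589 in pregnant rats 1 to 6, the widest range of any member at 32.5 times. miR-363 had 11 to 20 counts in controls, with a mean of 15.2 ± 3.66 (SD, n = 6), and 12 to 25 in pregnant rats, with a mean of 18.3 ± 4.46. miR-92b ran from 8 through 12.5 to 17 in controls and from 7 through 12.5 to 21 in pregnant rats. Both were near background. Their highest pregnant counts also came from rats 5 and 6, with 21 and 25 for miR-363 and 16 and 21 for miR-92b. Neither followed miR-25 down in pregnant rats 1 and 2, with 16 and 19 for miR-363 and 12 and 13 for miR-92b. miR-92a, often one of the abundant miRNAs of blood, had 1 to 5 counts in controls and 1 to 4 in pregnant rats, below the exogenous mean in all 12 rats.

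Of the other cluster products, miR-19b had 3 to 20 counts in controls, with a mean of 13.5 ± 5.89 (SD, n = 6), and 8, 6, 8, 13, 27 and 28 in pregnant rats 1 to 6. The 2 highest pregnant values again came from rats 5 and 6. miR-19a had 1 to 8 counts in controls and 2, 3, 5, 4, 23 and 17 in pregnant rats 1 to 6. miR-18a had 1 to 12 counts in controls and 3 to 16 in pregnant rats, with the highest in pregnant rat 5. The passenger strand probe miR-20b-3p had 1 to 5 counts in controls and 1 to 6 in pregnant rats.

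**Figure D1:**
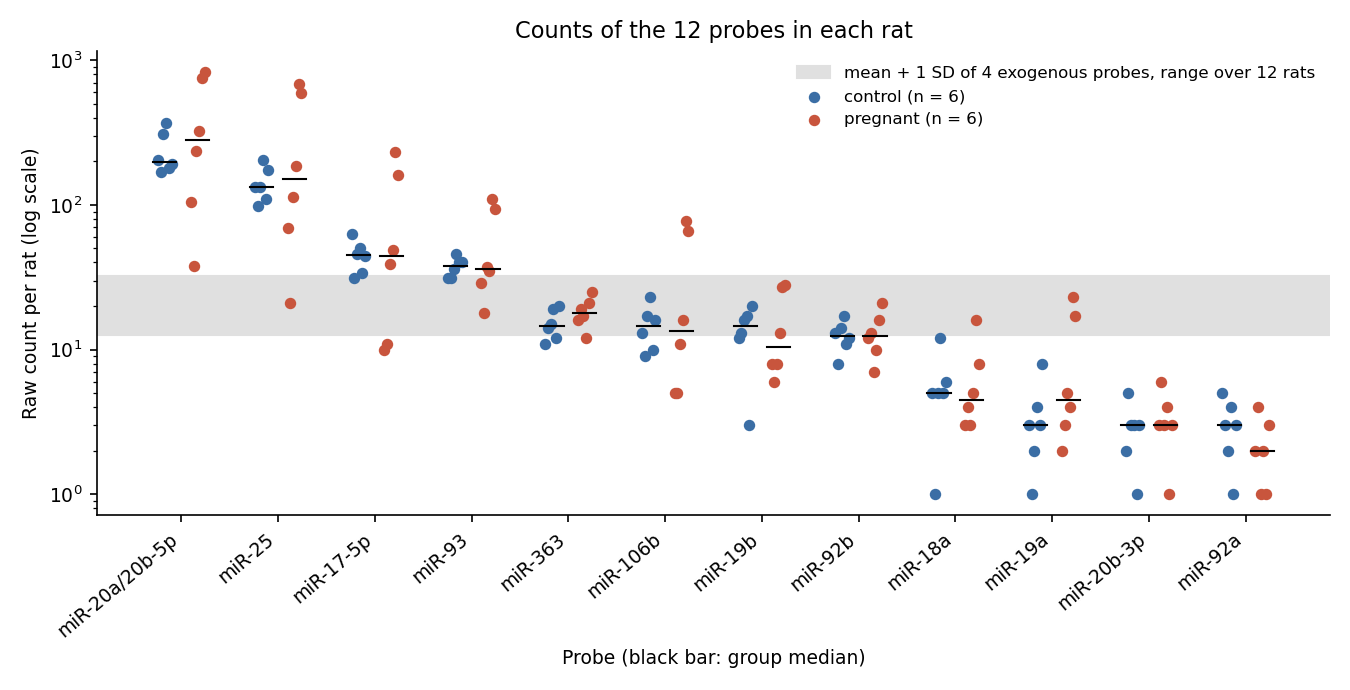
Raw counts (log axis) of the 12 probes, 1 point per rat, with black bars at the group medians and a grey band from 12.6 to 32.4 counts, the range over rats of the mean + 1 SD of the exogenous probes. For miR-20a/20b-5p, miR-25, miR-17-5p, miR-93, miR-106b, miR-19b, miR-363 and miR-19a, 2 pregnant rats lie above all controls. The points of miR-18a, miR-19a, miR-20b-3p and miR-92a lie mostly below the band.

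Against this stand-in, 3 of the 12 members were above the mean + 1 SD in all 12 rats, beside 38 of all 420 endogenous probes. These members were miR-20a/miR-20b-5p, miR-25 and miR-93. miR-17-5p was above it in 10 rats, miR-363 in 5, miR-106b and miR-19b in 4 each, miR-92b in 2 and miR-19a in 1. miR-18a, miR-20b-3p and miR-92a were above it in 0 rats. Mature products encoded by the chromosome 15 cluster were thus found on both sides of background, with miR-17-5p and the joint miR-20 probe, which also have a source on chromosome X, above it in most rats and miR-18a and miR-92a in none. Other probes with a member's seed were miR-32, which has the miR-25 seed and had 1 to 6 counts over the 12 rats, and miR-17-1-3p, which has the seed of miR-20b-3p and had 1 to 8. miR-17-2-3p, from the X locus, had 1 to 5 counts. miR-18b, miR-106a and miR-367 had no probe of that name in the table used.

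The main comparison asked whether members differed between pregnant and control rats. No member was called. The fit was edgeR's quasi-likelihood test on TMM-scaled counts, adjusted by Benjamini-Hochberg. A probe was tested where 6 or more rats reached 10 counts, which kept 187 endogenous probes, 8 of them members. It called 0 of 187 probes (0%) and 0 of 8 members, and at an unadjusted p under 0.05 it held 11 of 187 probes (5.88%) and 0 of 8 members. DESeq2 called 0 of 187 as well, with 8 at an unadjusted p under 0.05. The members' median log2 fold change was 0.34, beside 0.05 over all 187 probes, and 6 of 8 members were positive, beside 104 of 187.

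The highest member value was that of miR-106b, with a log2 fold change of 0.73 (SE 0.48, 95% confidence interval -0.30 to 1.75, edgeR adjusted p = 0.732). miR-25 had 0.61 (SE 0.55, interval -0.57 to 1.78, edgeR adjusted p = 0.797) and miR-17-5p 0.56 (SE 0.51, interval -0.53 to 1.65, edgeR adjusted p = 0.797). For miR-20a/miR-20b-5p it was 0.40 (SE 0.54, interval -0.75 to 1.55, edgeR adjusted p = 0.913). Of its 6 pregnant rats, 3 lay above the highest control on the scaled values and 2 below the lowest. The intervals of these 4 members reach from a fold of 0.593 to one of 3.44, so changes within that range could not be told from none with 6 rats per group.

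miR-93 had a log2 fold change of 0.27 (interval -0.33 to 0.88), miR-363 0.17 (interval -0.26 to 0.60) and miR-92b -0.04 (interval -0.48 to 0.39). miR-19b, at -0.00 (interval -0.74 to 0.73), had no direction. The positive values of the 5 most counted members depended on the scaling: with library size alone all of them were negative, from -0.35 for miR-20a/miR-20b-5p to -0.06 for miR-106b, while the median over all 187 probes moved to -0.33. Relative to that median, miR-20a/miR-20b-5p was then at its level and miR-106b above it.

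The 4 members that did not pass the filter were taken from the edgeR fit on all 420 endogenous probes. miR-19a had a log2 fold change of 1.21 (SE 0.52, interval 0.11 to 2.31), an unadjusted p of 0.0336 and an adjusted p of 0.835 by edgeR. Its value rested on 23 and 17 counts in pregnant rats 5 and 6, and only 1 rat was above the mean + 1 SD of background. miR-18a had 0.09, miR-20b-3p 0.17 and miR-92a -0.51 by that fit, with intervals that all included 0.

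**Figure D2:**
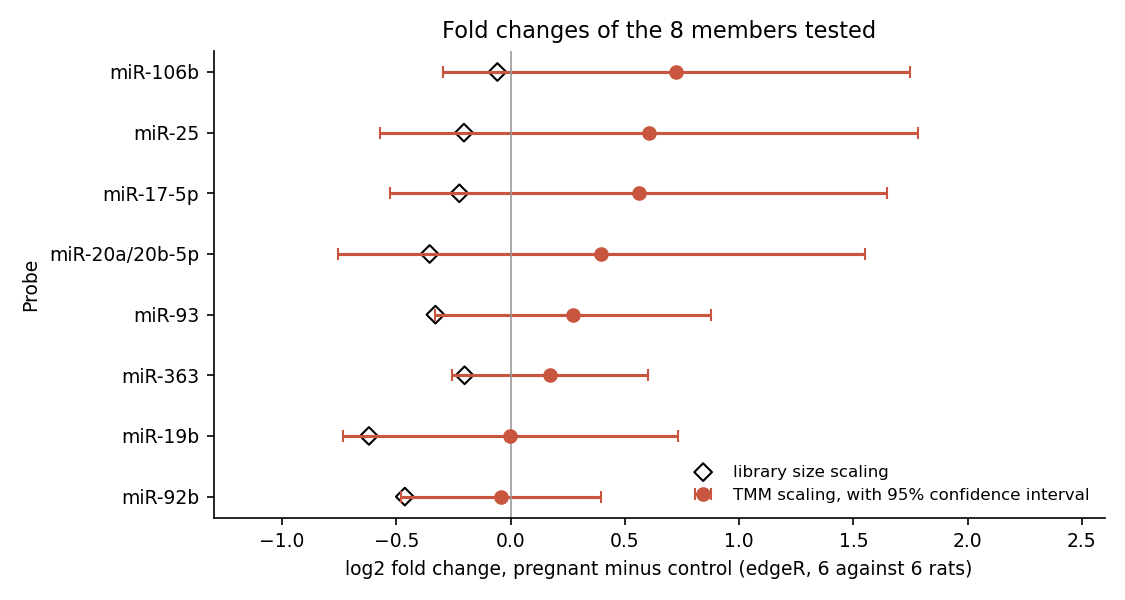
Log2 fold change of pregnant over control rats for the 8 members tested, from edgeR with TMM scaling (points, with bars for the 95% confidence interval) and with library size scaling (open diamonds). Every interval includes 0, and every diamond lies below it.

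The spread of the members between rats was compared next. Its value was higher in pregnant rats for the members with the most counts, though no difference passed after adjustment. Spread was taken as the mean absolute deviation of log2 TMM CPM (each count over the TMM-scaled library size) from the group median. For miR-25 it was 1.24 in pregnant rats and 0.26 in controls, for miR-17-5p 1.22 and 0.20, for miR-106b 1.13 and 0.35, and 1.06 against 0.33 for miR-20a/miR-20b-5p. It was 0.47 and 0.25 for miR-93. For miR-19b it was 0.55 and 0.53, for miR-92b 0.23 and 0.24, and for miR-363 0.19 and 0.27, the last 2 being no wider in pregnant rats.

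Each group was first centred on its own median, so that a shift was not read as spread. For spread, exact therefore means only that every assignment was counted, and the p of centred values is approximate. Over all 924 assignments of 6 of the 12 rats, the two-sided exact permutation p for the difference in spread was 0.0173 for miR-25, 0.0216 for miR-106b and 0.0238 for miR-17-5p. It was 0.128 for miR-20a/miR-20b-5p and 0.234 for miR-93 by the same exact permutation test. At this unadjusted threshold 3 of 8 members were wider in pregnant rats, beside 28 of 187 probes (15%). After adjustment over the 187 probes none passed, with an adjusted permutation p of 0.243 for each of the 3 members, so the wider spread was not established for any single member. Spread was higher in pregnant rats for 133 of the 187 probes, with a median difference of 0.11, and the difference was 0.98 for miR-25 and 1.03 for miR-17-5p.

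Other quantities moved with this spread. TMM factors, which multiply the library size of a rat, ran from 0.939 to 1.48 in controls and from 0.479 to 1.96 in pregnant rats, and pregnant rats 5 and 6 had the highest endogenous totals. On library size scaling, the difference in spread was smaller, at 0.45 for miR-25 and 0.54 for miR-17-5p (unadjusted exact permutation p = 0.0390 for each). For miR-106b it was 0.32 and no longer under the threshold (exact permutation p = 0.158), and for miR-93 it turned to -0.17, narrower in pregnant rats (unadjusted exact permutation p = 0.0260). None of these passed after adjustment. On that scaling 51 of the 187 probes were under an unadjusted 0.05 in either direction, beside 29 with TMM. Pregnant rats 2, 4, 5 and 6 were under 200 days, and among them were both the lowest and the highest counts of miR-25, while spread by age was not tested. The spike-in probe, with 6 to 44 counts, was itself near background and gave no measure of RNA yield. The part of the endogenous total in the spread was not tested.

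**Figure D3:**
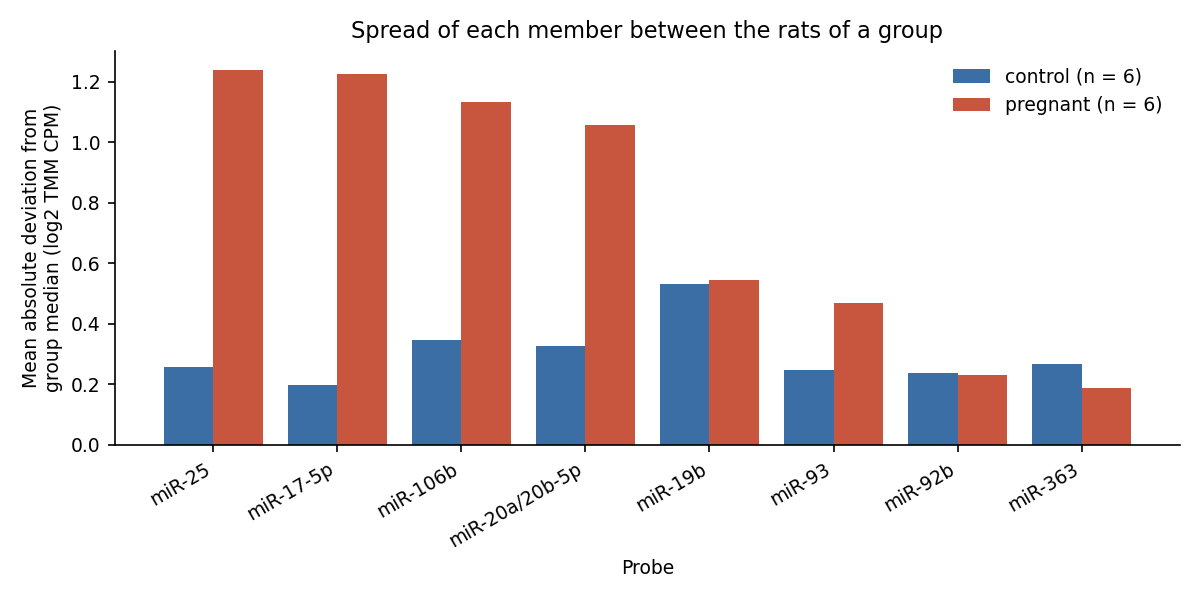
Spread of the 8 tested members between rats, as the mean absolute deviation of log2 TMM CPM from the group median, with 6 control and 6 pregnant rats per bar pair. miR-25, miR-17-5p, miR-106b and miR-20a/20b-5p stand above 1 in pregnant rats and below 0.4 in controls, while miR-363, miR-92b and miR-19b have bars of like height.

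Ratios between members within a rat need no scaling. The members that varied most did so together. The log2 ratio of miR-20a/miR-20b-5p to miR-25 had an SD of 0.32 over the 12 rats, a factor of 1.25, although each of the 2 counts varied more than 20-fold among pregnant rats. In both cases the other was the nearest of 186 tested probes by this measure. These 2 miRNAs have different seeds and come from different chromosomes. The ratio of miR-106b to miR-17-5p had an SD of 0.36, and each was likewise the nearest probe to the other. miR-106b was above the exogenous mean in 7 rats and above the mean + 1 SD in 4, so this ratio includes counts near background. The median SD over all 17391 pairs of tested probes was 0.75, and over the 28 pairs of tested members it was 0.76. The member pairs as a set were thus no closer than other pairs.

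The next nearest probes differed from member to member. For miR-25 they were miR-451, an erythroid miRNA abundant in red cells, with an SD of 0.41, and miR-106b with 0.43. For miR-20a/miR-20b-5p they were miR-301a with 0.42 and miR-27b with 0.47, for miR-106b miR-25 with 0.43 and miR-301a with 0.43, and for miR-17-5p miR-29c with 0.45 and miR-25 with 0.48. None of the 3 probes nearest to miR-93 was a member: they were miR-191 with 0.29, miR-429 with 0.33 and miR-15b with 0.33. Its ratio to miR-25, from the same locus, had an SD of 0.68 and ranked 72 of 186.

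Of the members near background, miR-363 was nearest to miR-3596b (SD 0.25), miR-449a (0.25) and miR-465 (0.29), and miR-92b to miR-336 (0.25), miR-151 (0.27) and miR-463 (0.28). miR-19b was nearest to miR-96 (0.51), miR-3551-5p (0.60) and miR-210 (0.63). These values are given only as a description.

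No ratio between members was called different between the groups. Over the 28 pairs of tested members, the difference in mean log2 ratio ran from -0.23 to 0.24 and the two-sided exact permutation p from 0.314 to 0.998. Under an unadjusted threshold of 0.05 fell 0 of these 28 pairs, beside 544 of the 17391 pairs (3.13%), and none of the 17391 passed after adjustment. For miR-20a/miR-20b-5p over miR-25 the mean log2 ratio was 0.66 in pregnant rats and 0.72 in controls (SD 0.32 and 0.35, n = 6 each, exact permutation p = 0.755). For miR-106b over miR-17-5p it was -1.41 and -1.64 (SD 0.32 and 0.40, n = 6 each, exact permutation p = 0.314). For miR-25 over miR-93 it was 1.80 and 1.89, with an SD of 0.96 in pregnant rats and 0.29 in controls (exact permutation p = 0.848).

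**Figure D4:**
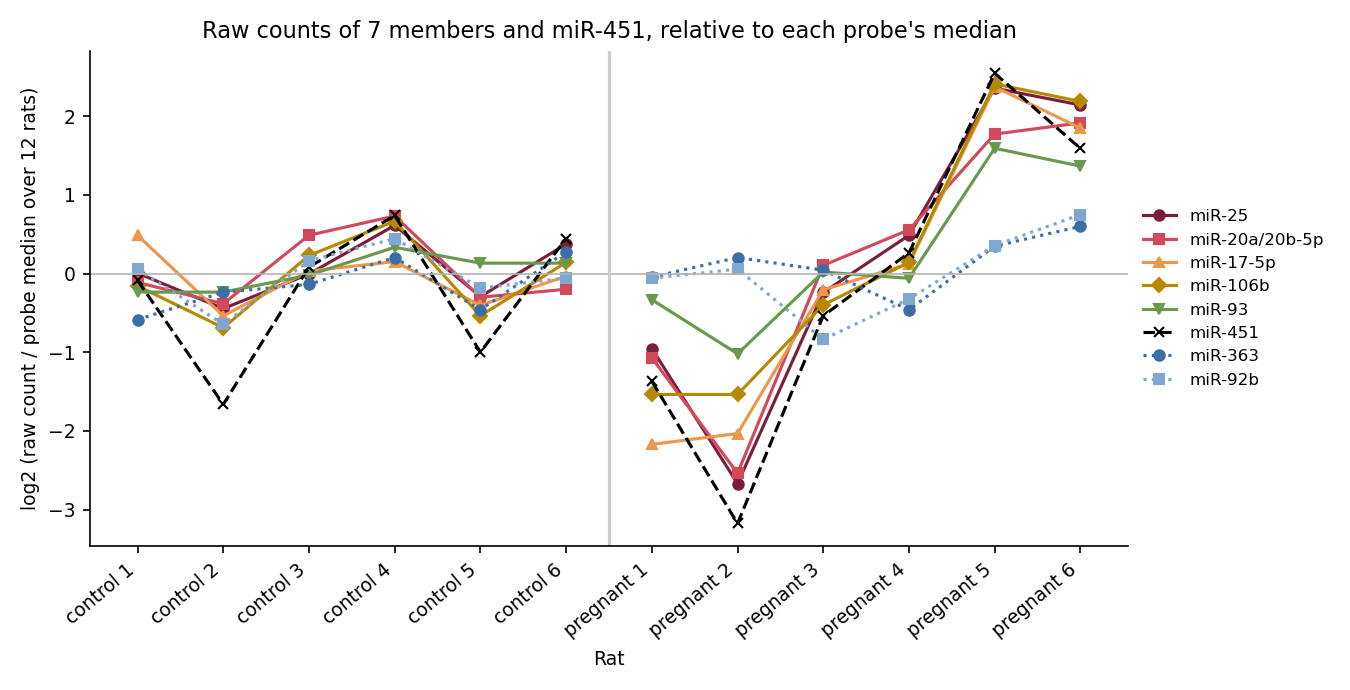
Log2 of the raw count of each rat over the probe's median in 12 rats, for 7 members and miR-451. miR-25, miR-20a/20b-5p, miR-17-5p and miR-106b follow miR-451 down in pregnant rats 1 and 2 and up in pregnant rats 5 and 6, miR-93 does so less, and miR-363 and miR-92b stay within 1 unit of their medians.

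Because members of this family are found in blood cells, they were set against miR-451, the red cell marker, and miR-126, which is carried by platelets and endothelium. miR-451 had 137, 433.5 and 723 counts as the lowest, median and highest control value and 168, 48, 299, 520, 2529 and 1304 in pregnant rats 1 to 6. miR-126 had 31, 65.5 and 149 in controls and 38, 16, 36, 70, 414 and 752 in pregnant rats 1 to 6. Both markers thus had their lowest pregnant count in rat 2, as miR-20a/miR-20b-5p, miR-25 and miR-93 did, and their highest in rats 5 and 6, as the 5 most counted members did.

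On log2 TMM CPM over the 12 rats, Pearson's r with miR-451 was 0.95 for miR-25 (rho 0.93), 0.91 for miR-106b (rho 0.95), 0.91 for miR-20a/miR-20b-5p (rho 0.82), 0.88 for miR-17-5p (rho 0.88) and 0.84 for miR-93 (rho 0.76). The unadjusted permutation p of r was 1e-05 for miR-25 and for miR-106b, the smallest that 100000 resamples can give, 5e-05 for miR-20a/miR-20b-5p, 0.00015 for miR-17-5p and 0.00063 for miR-93. For rho the permutation p was 5e-05, 1e-05, 0.00175, 0.00041 and 0.00526 for miR-25, miR-106b, miR-20a/miR-20b-5p, miR-17-5p and miR-93. After adjustment over the 372 relations of all tested probes to both markers, the permutation p of r was 0.00186 for miR-25 and for miR-106b, 0.00260 for miR-20a/miR-20b-5p, 0.00465 for miR-17-5p and 0.0102 for miR-93. That of rho was 0.00521 for miR-25, 0.00372 for miR-106b, 0.0266 for miR-20a/miR-20b-5p, 0.00953 for miR-17-5p and 0.0509 for miR-93, so the rank relation of miR-93 did not pass.

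Thus 5 of 8 members were positively related to miR-451 by r, beside 24 of 186 probes (12.9%), and the median r over the 186 was 0.01. miR-19b had an r of 0.63 (rho 0.83, permutation p = 0.0289 for r and 0.00121 for rho), which did not pass for r after adjustment (adjusted permutation p = 0.0853). For rho its adjusted permutation p was 0.0237. miR-363 had an r of -0.27 (rho -0.21) and miR-92b one of 0.01 (rho 0.06), neither near the threshold, with permutation p of 0.395 and 0.977 for r and 0.513 and 0.870 for rho.

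The relation held within each group for some members and rested on few rats for others. Without pregnant rats 2 and 5, which lay farthest from the median of miR-451, r was 0.89 for miR-106b, 0.88 for miR-25, 0.81 for miR-20a/miR-20b-5p, 0.75 for miR-17-5p and 0.62 for miR-93, and the last no longer passed (permutation p = 0.0589). Among the 6 controls alone r was 0.90 for miR-106b (exact permutation p = 0.0181), 0.85 for miR-25 (exact permutation p = 0.0264), 0.68 for miR-17-5p (exact permutation p = 0.135), 0.60 for miR-20a/miR-20b-5p (exact permutation p = 0.233) and 0.30 for miR-93 (exact permutation p = 0.565). Among the 6 pregnant rats alone it ran from 0.92 for miR-106b to 0.99 for miR-25. Among rats under 200 days it was 0.88 to 0.97 for these 5 members. On library size scaling, 3 of the 5 relations still passed, those of miR-25 (r = 0.94), miR-20a/miR-20b-5p (r = 0.87) and miR-106b (r = 0.85), beside 4 of all 186 probes in either direction and a median r of -0.19.

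**Figure D5:**
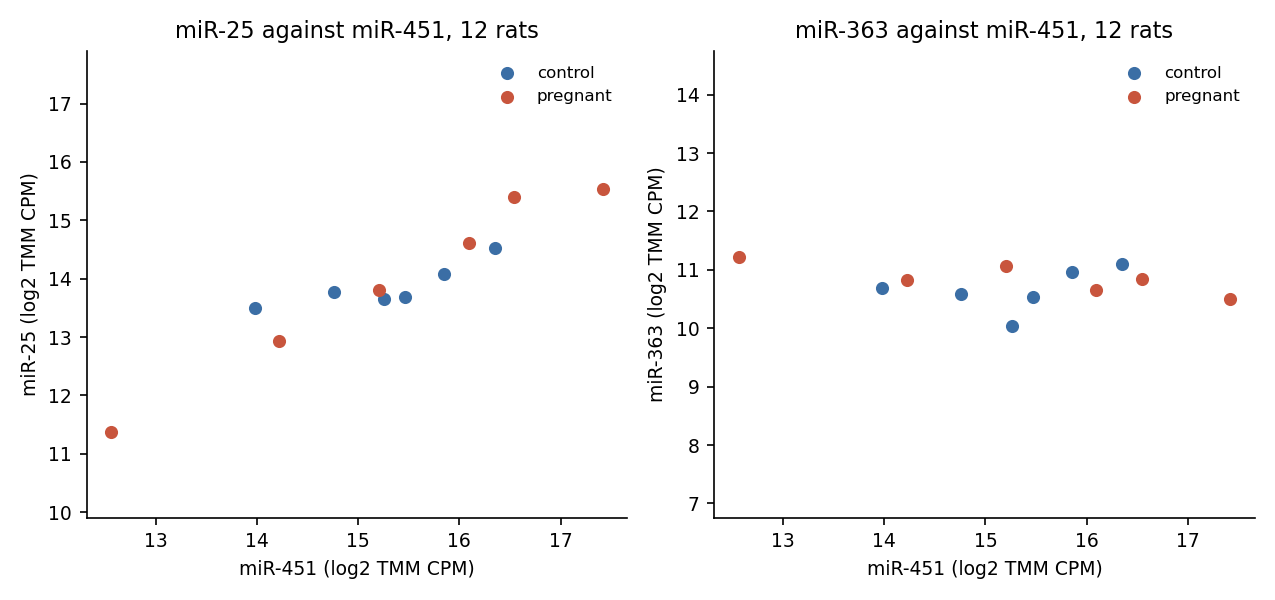
miR-25 (left) and miR-363 (right), which share a seed, against miR-451 in 12 rats, all on log2 TMM CPM with y axes of equal length. miR-25 rises with miR-451 in both groups (r = 0.95 over 12 rats), while miR-363 does not (r = -0.27).

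With miR-126 the coefficients of these 5 members were lower. Pearson's r was 0.82 for miR-106b (rho 0.73), 0.81 for miR-93 (rho 0.71), 0.81 for miR-20a/miR-20b-5p (rho 0.88), 0.79 for miR-25 (rho 0.65) and 0.76 for miR-17-5p (rho 0.66), with unadjusted permutation p of 0.00116, 0.0014, 0.00192, 0.00227 and 0.00449 for r and 0.00861, 0.0117, 0.00031, 0.0257 and 0.0225 for rho. By r, 5 of 8 members passed after adjustment (adjusted permutation p from 0.0135 to 0.0265), beside 33 of 186 probes (17.7%). On library size scaling none of the 5 passed (adjusted permutation p from 0.275 to 0.640, r from 0.25 for miR-93 to 0.64 for miR-106b), beside 3 of all 186 probes. By rho on log2 TMM CPM, only miR-20a/miR-20b-5p passed (adjusted permutation p = 0.00850). The number of all 186 probes that passed by rho is not given for either marker, so the shares over all probes hold for r alone. Without pregnant rats 5 and 6, the farthest from the median of miR-126, r was 0.73 for miR-20a/miR-20b-5p (permutation p = 0.0136), while for the other 4 it lay between 0.56 and 0.62 and did not pass, so those relations rested on these rats. Among the controls alone r was 0.53 for miR-20a/miR-20b-5p, 0.34 for miR-93, 0.14 for miR-106b, -0.01 for miR-17-5p and -0.12 for miR-25. Whether a member was related more closely to one marker than to the other was not tested.

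The red cell, platelet and white cell lists had their lowest sum in pregnant rat 2 and their highest in pregnant rat 5 or 6. The 3 red cell markers on the panel (miR-451, miR-144 and miR-16, of 4 listed) summed to 316 to 1243 counts in controls and 56 to 4459 in pregnant rats. The 5 platelet markers summed to 262 to 638 in controls and 43 to 2858 in pregnant rats, with miR-24 above the mean + 1 SD of background in 0 rats. The 4 white cell markers on the panel, of 5 listed, summed to 197 to 628 in controls and 82 to 2038 in pregnant rats. Of the liver markers, all 3 were on the panel and summed to 146 to 2649 and 87 to 5733, and the highest rat there was pregnant rat 3. In that rat miR-122 gave 5714 of the 5733 counts, and miR-194 was above the mean + 1 SD of background in 0 rats. The 3 muscle markers summed to 84 to 163 and 63 to 300, with the lowest sum in pregnant rat 1 and the highest in pregnant rat 5. No muscle marker was above the mean + 1 SD of background in all rats. miR-16, which the red cell and platelet lists share, had 1 count in each of pregnant rats 1 and 2 and at least 157 in each of the other 10 rats. In pregnant rat 6 it gave 1861 of the 2858 platelet counts. The platelet and white cell lists share miR-223, so these lists are not independent. The part of blood cell RNA in the members' counts was not tested, and more RNA of a kind per volume of plasma cannot be told apart from more cells or vesicles that carry it.

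The members were also followed through versions of the study's 14 processing workflows, which combine no correction, background subtraction or background thresholding at 3 levels with 1 of 2 normalisations. Here the exogenous probes stood in for background, and the study's positive control normalisation was left out. The normalisers were chosen anew with that stand-in, 38 for total RNA and 5 by NormFinder. In each workflow, groups are compared by the methods' t-test without adjustment. Of the 168 tests of 12 members in 14 workflows, 1 fell under 0.05, that of miR-363 after subtraction of mean + 2 SD with NormFinder normalisers (0.919 in pregnant and 1.22 in control rats, SD 0.188 and 0.246, two-sided exact permutation p = 0.0455). In that workflow 11 of 12 rats lay at the floor to which subtracted values under 1 were set, so most of the values compared were the rats' normalisation factors. The 12 members thus gave 1 called probe, beside 39 of 420 endogenous probes called in at least 1 workflow (9.29%).

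For the well counted members the ratio depended on the normalisation. Mean ratios of pregnant to control rats for miR-25 were 1.48 to 1.50 in the 7 NormFinder workflows and 0.995 to 1.18 in the 7 total RNA workflows. For miR-20a/miR-20b-5p they were 1.13 to 1.27 and 0.786 to 1.05, for miR-17-5p 1.45 to 2.83 and 1.14 to 1.87, and for miR-93 1.08 to 1.82 and 0.968 to 1.34. The lowest two-sided exact permutation p of these 4 members over the 14 workflows was 0.310. miR-106b, which is near background, ranged most widely, from 0.916 to 5.26, with a lowest exact permutation p of 0.201.

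miR-20a also served the study as a normaliser in RT-qPCR, so its own stability was ranked. NormFinder, which scores each candidate by its variation within and between groups, with a lower score for a more stable probe, placed miR-20a/miR-20b-5p 12 of the 38 probes above the exogenous stand-in in all rats, with a value of 0.306. These ranks hold for that set of candidates and that stand-in alone. miR-25 was 22 with 0.392 and miR-93 was 25 with 0.404, and the most stable probe, miR-450a, had 0.113. On raw counts miR-20a/miR-20b-5p was 24 and miR-93 was 2 of the 38. The ranks of the members thus depended on whether background had been subtracted.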

How the data were processed

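Plasma miRNA of 12 rats was counted on the nCounter with the rat v1.5 panel. The authors deposited raw counts per probe, without background correction or normalisation, and the smallest count was 1. The members and lists were chosen with earlier results of these data known. All named members, the 3 probes nearest to each tested member and the blood cell markers are given by name.

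Each rat is 1 biological sample, grouped from the sample labels. Among 66 pairs of rats, 0 had identical counts, and no column was left out (0 unused). Counts were tested with edgeR 4.0.16 (glmQLFit and glmQLFTest, TMM) in R 4.3.3, with DESeq2 1.42.0 and limma 3.58.1 as alternatives. Exact permutation tests were two-sided over all 924 assignments, whose smallest p is 0.00216. For spread, the groups were centred on their own medians before permuting, which makes that p approximate. Correlations used 100000 resamples and Benjamini-Hochberg adjustment over 372 relations. The procedures were tested on simulated data. Positive and negative control probes were not used here, and 4 exogenous probes stood in for background, a choice that earlier results informed. Sequences and positions came from RefSeq tables for GRCr8, in which 367 of 420 endogenous probes had a mature sequence by name. Versions of the other tools were scipy 1.17.1 and numpy 2.4.6 under Python 3.11.15. Alternatives were other scalings, filters, tests, blocks and background levels, and each rat left out in turn.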

Additional observations from a re-analysis of the deposited data

Results flagged for a closer look

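Among 16 groups of 6 rats (8 members in 2 groups), 1 held a rat that stood apart from the rest. Control rat 5 had 3 counts of miR-19b, or 8.58 on the log2 TMM CPM scale, where the next lowest control rat had 10.17. Its gap to that rat was 0.667 of the whole range of the group, above the critical value of 0.625. Chance alone is expected to give about 1 such rat in 20 groups, so 1 in 16 is near that rate. Without control rat 5 the log2 fold change of miR-19b was -0.27, against -0.00 with all rats.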

How the results depend on the processing

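In every setting run, 0 members were called between the groups, 0 of 28 member ratios and 0 of 8 member spreads passed after adjustment, and this included each rat left out in turn (0 to 0 for all 3). With the background mean subtracted, 3 ratios fell under an unadjusted 0.05 (exact permutation p from 0.0238 to 0.0476). They were those of miR-106b to miR-17-5p, miR-25 and miR-20a/miR-20b-5p, where at least 5 of the 12 values of miR-106b were at the floor. Without control rat 5, 1 member ratio fell under it. The number of all 17391 pairs under 0.05 is not given for these settings, so the member numbers cannot be set against it. Replicate numbers did not pair the rats, since the deviations of rats with the same number correlated from -0.31 to 0.25, and with the replicate block 0 members and 0 ratios were called.

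Log2 fold changes changed sign under library size scaling for miR-106b (-0.058), miR-17-5p (-0.22), miR-20a/miR-20b-5p (-0.35), miR-25 (-0.20), miR-363 (-0.20) and miR-93 (-0.33). Under limma-voom they did for miR-17-5p (-0.24), miR-20a/miR-20b-5p (-0.13), miR-25 (-0.13) and miR-19b (0.055). On mean log2 CPM they did for miR-17-5p (-0.031) and miR-19b (0.024). With background subtracted they did for miR-20a/miR-20b-5p (-0.17), miR-93 (-0.056) and miR-92b (0.027). miR-363 was at -0.0012 with upper quartile scaling and -0.024 in rats under 200 days, and miR-19b was at 0.043 without a filter and 0.11 in rats under 200 days. The cause of these changes was not tested. With 1 rat left out, miR-19b ran from -0.27 to 0.10, miR-363 from -0.021 to 0.27, miR-92b from -0.19 to 0.084, miR-106b from 0.36 to 0.92, miR-25 from 0.28 to 0.77, miR-17-5p from 0.13 to 0.70, miR-20a/miR-20b-5p from 0.12 to 0.60 and miR-93 from 0.10 to 0.36.

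Member spreads under an unadjusted 0.05 numbered 3, beside 29 of 187 probes in either direction. The members were 2 without pregnant rat 5 or without pregnant rat 6, in both cases without miR-106b (exact permutation p = 0.0584), 4 on raw log2 counts, with miR-20a/miR-20b-5p added (exact permutation p = 0.0325), and 4 without control rat 5, with miR-19b added (exact permutation p = 0.00649). Over all 187 probes the number was 11 without pregnant rat 5 and 10 without pregnant rat 6. It was 29 on raw log2 counts and 31 without control rat 5. The relations of members to miR-451 and miR-126 that passed were 10 of 16 and fell to 3 with library size scaling. Member calls in the workflows were 1 as reported, 2 by the exact permutation test, which added miR-92b after subtraction of mean + 1 SD, and 0 after adjustment within a workflow. With 1 rat left out the member calls ran from 0 to 9, with 9 without pregnant rat 2, 5 without control rat 1, 2 without control rat 2, and 0 without control rat 3 or pregnant rats 1, 3, 4 or 6. Calls over all 420 endogenous probes are not given for these other settings, so the member numbers cannot be set against them. Without pregnant rat 2, miR-18a, miR-19a, miR-19b, miR-20b-3p, miR-92a and miR-92b had the same t-test p, 0.0288, after subtraction of mean + 2 SD. Without control rat 1, miR-18a, miR-19a, miR-20b-3p and miR-92a had the same t-test p, 0.0445, after subtraction of mean + 1 SD. In those workflows these probes lay at the floor in all 12 rats, so such calls repeat 1 comparison of normalisation factors. Of the 5 most stable probes by NormFinder, 0 were members, and 1 was on raw counts (miR-93, also with no groups, a setting added after seeing the data) and on linear values (miR-25). Detection of 3 members in all rats became 2 at mean + 2 SD and with the housekeeping mRNA probes as stand-in. It stayed at 3 with the exogenous mean and with exogenous and mRNA probes together.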
